A study of Mus musculus with 15 samples.

Results

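Probes UCSF033_000436, UCSF033_000442 and UCSF033_000456 are 3 of the 2500 probes of a custom one-colour Agilent microRNA array that was hybridised with RNA from mouse CD4 T cells. The 3 were chosen by their measured signal, as probes that were higher soon after T cell activation, and no threshold for the choice was given. The values on the naive, 6, 12 and 24 h arrays are therefore taken as those that chose them and are described here without a test. The files used here do not pair these probe IDs with microRNA names or sequences, so the probes appear by ID, no sequence is printed, and their targets are not discussed.

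MicroRNAs are short RNAs that guide Argonaute proteins to messenger RNAs and lower their translation and stability. A naive CD4 T cell is a resting helper T cell that has not met its antigen. When its T cell receptor, together with the costimulatory receptor CD28, is engaged, the cell enlarges, starts to divide and makes cytokines. The content of mature microRNAs is known to change over that transition, through both new transcription and turnover. Interleukin-2 (IL-2) is a growth factor that keeps activated T cells alive once the stimulus has been removed.

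The cells came from spleen and lymph nodes of C57/B6 mice aged 6-8 weeks and were purified with magnetic beads against CD4. Untreated naive cells were hybridised on 2 arrays. First activation, on dishes coated with antibodies against CD3 and CD28, was followed with 2 arrays per time at 6, 12, 24, 42 and 65 h. A single array held cells removed from the antibodies after 65 h and kept in IL-2 until day 7. Another 2 arrays held such rested cells returned to the antibodies for 18 h. The labels name no genotype beyond the strain. They also leave unsaid whether a group's arrays share a mouse or a culture, and the p-values below may therefore reflect technical spread alone. In a preparation of many cells, a change in the share of cells of a type and a change in the RNA per cell cannot be told apart. No marker of another cell type could be looked up without probe names.

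The 15 arrays lay on 2 slides. Slide 1 held 1 array of each of the 8 groups, and slide 2 held the other 7, with no day 7 array. The first 42 h array, on slide 2, stood apart. It had 2146 probes above background, against 640 to 950 on the others, a median spot brightness of 452, against 21 to 23, and 49.6% non-uniform spots, against at most 0.134%. It was left out of the main values and is given separately, so that 42 h and day 7 rest on 1 array each, both on slide 1. Of the 2500 probes, 882 were tested, namely those above background on both arrays of at least 1 group. With so few arrays, their number sets how precise any value can be.

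All 3 probes were measurable throughout. Each was printed as 7 spots and was detected above background on all 14 arrays. The median SD between spots of a probe on one array was 0.12, 0.06 and 0.09 log2 for UCSF033_000436, UCSF033_000442 and UCSF033_000456. This is the spread of the measurement within an array and does not cover the spread between samples. The background-subtracted signal ran from 47.9 to 430 for UCSF033_000436 and from 63.7 to 506 for UCSF033_000442. The signal of UCSF033_000456 ran from 16.4 to 104. Its lowest ratio of raw spot to local background was 2.59, on the day 7 array. Levels below are the signal as a percentage of the array's 75th percentile over the 571 probes detected on all 14 arrays, with slide 1 given first. Such a level holds for one probe across arrays and was not compared between probes.

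UCSF033_000436 was lowest in naive cells, at 3.26% and 2.10%. It reached 9.29% and 11.5% at 6 h, 11.4% and 17.6% at 12 h, and 21.8% and 16.1% at 24 h. At 42 h the slide 1 array gave 26.4%, and at 65 h the level was 12.4% and 15.01%. No activated array from 6 to 65 h overlapped the naive arrays, and the level after 42 h was lower on both 65 h arrays. The day 7 array stood at 5.85%, and the restimulated arrays at 13.3% and 5.50%, one on either side of it.

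UCSF033_000442 followed a similar course. Its naive level was 3.54% and 3.45%, the closest pair of any group for this probe. It was 13.1% and 15.04% at 6 h, 10.13% and 20.7% at 12 h, and 19.9% and 25.3% at 24 h. The 12 h arrays thus straddled the 6 h arrays, and every later activated array lay above the naive ones. The 42 h array gave 33.9%, the 65 h arrays 15.2% and 25.5%, the day 7 array 9.11% and the restimulated arrays 21.1% and 11.2%.

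UCSF033_000456 began in the same way and then took another course. Naive cells gave 0.978% and 1.17%, the 6 h arrays 3.37% and 3.15%, and the 12 h arrays 5.26% and 3.44%. At 24 h the level was 3.46% and 2.04%, lower than at 12 h on both slides. The 42 h array gave 3.10% and the 65 h arrays 5.51% and 3.75%. The day 7 array stood at 2.24%, and the restimulated arrays at 8.96% and 5.57% were the highest of their slides.

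On the left-out 42 h array the 3 probes stood at 13.1%, 11.7% and 8.17%, in the order of their IDs. For UCSF033_000436 and UCSF033_000442 that is below the other 42 h array, and for UCSF033_000456 it is above it. Only 2 of the 7 spots of UCSF033_000436 and 5 of the 7 of UCSF033_000456 could be kept there. In the authors' value table both 42 h columns read alike for these probes, with log2 values of 8.45 and 8.27, 8.71 and 8.55, and 5.41 and 5.74, the first 42 h array leading each pair. That column, however, had a rank correlation of only 0.504 with its own scanner file across probes, against at least 0.972 for the other 14.

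By 6 h all 3 probes stood about 3-fold to 4-fold above naive, which is the property that chose them. The difference was 1.98 log2 for UCSF033_000436 (a 3.95-fold ratio; 1.51 on slide 1 and 2.46 on slide 2). It was 2.01 log2 for UCSF033_000442 (4.02-fold; 1.89 and 2.12). It was 1.60 log2 for UCSF033_000456 (3.04-fold; 1.78 and 1.43). Over all 882 tested probes the median difference at 6 h was -0.06 log2, and these 3 ranked 4, 3 and 11 from the top. A difference of at least 1 log2 on both slides was seen for 21 tested probes at 6 h (2.38%) and for 38 at 12 h (4.31%), and all 3 probes were among both. Since the choice used these arrays, nothing is read from that.

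From 12 h onwards the probes parted. All differences from naive share the 2 naive arrays. The difference of UCSF033_000436 from naive was 2.44 log2 after 12 h, 2.84 after 24 h and 3.33 after 42 h, a 10.09-fold ratio on the single 42 h array. For UCSF033_000442 the same times gave 2.05, 2.68 and 3.28 log2, 9.70-fold on that array. UCSF033_000456 differed from naive by 1.99 log2 at 12 h, by 1.31 at 24 h, and by 1.53 at 42 h, a difference that turned to -0.52 when the arrays were not scaled. In the step from 12 to 24 h UCSF033_000442 was higher on both slides (0.97 and 0.29 log2). UCSF033_000436 was higher on slide 1 and slightly lower on slide 2 (0.94 and -0.13). UCSF033_000456 was lower on both (-0.61 and -0.75), and its mean step of -0.68 ranked 52 from the lowest of the 882 tested probes. In the authors' value table that step was -0.55 log2. With normexp background correction the lower level was not seen, with differences from naive of 1.08 log2 at 12 h and 1.12 at 24 h. Relative to the median of the tested probes the normexp values were 0.79 and 0.47 log2.

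The 3 probes ranked lower at 65 h than at 6 h. A lower later rank can follow from the choice on early arrays alone, so the ranks are a description. By its difference from naive, UCSF033_000436 ranked 7 of 882 after 12 h, 16 after 24 h, 17 after 42 h and 68 after 65 h. UCSF033_000442 ranked 15, 19, 20 and 60 at those times, and UCSF033_000456 ranked 21, 87, 176 and 91. The share of tested probes that stood at least 1 log2 above naive in the mean was 4.31% at 6 h and 33.7% at 65 h. Over the 21 probes that stood at least 1 log2 above naive on both slides at 6 h, the median difference from naive was 1.60 log2 at 6 h, 2.21 at 24 h and 2.54 at 65 h. At 65 h UCSF033_000436 (2.38) and UCSF033_000456 (2.08) lay below that median, and UCSF033_000442 (2.50) lay close to it. The 21 probes were picked on the naive and 6 h arrays, so these values are a description too.

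The course after 6 h depended on the scaling. The 75th percentile used to scale each array was 1802 and 2668 on the naive arrays and 1644 and 2663 after 6 h. It was 932 and 2440 after 12 h, 910 and 1166 after 24 h, and 529 on the 42 h array. Without scaling the 6 h differences of the 3 probes were 1.92, 1.94 and 1.54 log2, in the order of the IDs, close to the scaled ones, and their ranks were 5, 4 and 12. At 42 h the unscaled difference was 1.28 log2 for UCSF033_000436 and 1.23 for UCSF033_000442, both below their 6 h values. In the plain differences from naive, the further difference between 6 and 42 h was thus seen with scaling and not without it. The median of all tested probes moved by -1.34 log2 at 42 h without scaling and by 0.30 with it. Relative to that median, UCSF033_000436 stood 2.62 log2 higher at 42 h without scaling and 3.03 with it, and UCSF033_000442 2.56 and 2.97. UCSF033_000456 stood 0.82 and 1.23 log2 above it. At 6 h these values were 2.04 and 2.04 log2, 2.07 and 2.06, and 1.67 and 1.66, in the order of the IDs. Relative to the median, UCSF033_000436 and UCSF033_000442 were thus higher at 42 h than at 6 h either way. With normexp these values were 1.34, 1.43 and 0.71 log2 at 6 h and 1.36, 1.39 and 0.46 at 42 h. The normexp differences from naive of UCSF033_000436 and UCSF033_000442 were 1.39 and 1.49 log2 at 6 h, and 2.72 and 2.75 at 42 h. With scaling the median also moved by 0.59 log2 at 65 h, 0.25 at day 7 and 0.37 after restimulation. Relative to it the 3 probes stood 1.79, 1.90 and 1.49 log2 higher than in naive cells at 65 h, 0.91, 1.14 and 0.82 higher at day 7, and 1.33, 1.76 and 2.35 higher after restimulation.

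The unscaled signals show the same dependence array by array. UCSF033_000436 read 58.8, 153, 106, 198 and 140 on slide 1 from naive to 42 h, and 56.0, 306, 430 and 188 on slide 2 from naive to 24 h. UCSF033_000442 read 63.7, 215, 94.4, 181 and 179 on slide 1, and 92.0, 400, 506 and 295 on slide 2. UCSF033_000456 read 17.6, 55.4, 49.0, 31.5 and 16.4 on slide 1, and 31.3, 84.0, 84.0 and 23.8 on slide 2. The signal at 6 h was above naive on both slides for each probe, whereas at 24 h UCSF033_000456 was above naive on slide 1 and below it on slide 2. The part of the lower overall signal of the later arrays in these differences was not tested.

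With quantile normalization UCSF033_000436 and UCSF033_000442 stood 1.82 and 1.87 log2 above naive at 6 h, 3.19 and 3.16 at 42 h, and 1.78 and 1.96 at 65 h. For UCSF033_000456 the difference from naive was 1.40 log2 at 6 h and 1.16 at 24 h. It was 0.98 log2 at the 42 h time, 1.48 at 65 h and 2.27 after restimulation. These values were near those scaled by the percentile at 6 h and lower at 65 h. At day 7 all 3 differences were above 0 with quantile normalization (0.86, 1.07 and 0.51 log2), whereas without scaling they were -0.26, -0.039 and -0.36. In the authors' value table the early differences were smaller and in the same direction. At 6 h they were 1.45 log2 for UCSF033_000436, 1.59 for UCSF033_000442 and 0.83 for UCSF033_000456. In that table the first pair was also highest at 42 h (2.29 and 2.28 log2), and for UCSF033_000456 it was largest after restimulation (1.28). The median of the tested probes moved by at most 0.10 log2 in that table at any time.

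Ordered by mean level, the groups formed different sequences for the 3 probes. For UCSF033_000436 the order from the highest was 42, 24, 12, 65 and 6 h, then restimulated, day 7 and naive. For UCSF033_000442 it was 42, 24 and 65 h, restimulated, 12 and 6 h, day 7 and naive. For UCSF033_000456 it was restimulated, 65, 12, 6, 42 and 24 h, day 7 and naive. In each case the scaled levels of the naive arrays lay clear of the group above, and day 7 was the next lowest. Most other neighbours overlapped: 24 h with 12 h, 12 h with 65 h, 6 h with restimulated and restimulated with day 7 for UCSF033_000436, and the 4 successive pairs from 24 h down to 6 h for UCSF033_000442. For UCSF033_000456 the 65 h arrays overlapped those of 12 h, and the 24 h arrays those of 42 h and day 7. For UCSF033_000436 and UCSF033_000442 the highest group also depended on the slide. The former was highest at 42 h on slide 1 and at 12 h on slide 2, and the latter at 42 h and 65 h, while slide 2 had no usable 42 h array. The scaled level of UCSF033_000456 was highest after restimulation on both slides. Without scaling its restimulated signal was the highest on slide 2, at 104. On slide 1 it was 45.6, below 55.4 at 6 h and 49.0 at 12 h. With normexp background correction its mean difference from naive was 1.76 log2 after restimulation and 1.82 on the 42 h array. Its unscaled 42 h signal (16.4) was below both naive arrays (17.6 and 31.3), and its day 7 signal (18.3) lay between them. The unscaled day 7 signal of UCSF033_000442 (74.5) also lay between its naive arrays (63.7 and 92.0). For UCSF033_000436 it was 47.9, below both naive arrays (58.8 and 56.0). In the authors' value table the day 7 differences from naive were 0.44, 0.69 and 0.16 log2, in ID order.

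Comparisons among the later groups do not involve the arrays taken as those that chose the probes and were tested, although which arrays the choice used is not given. These were 65 h against 42 h, day 7 against 65 h, restimulated against day 7 and restimulated against 65 h, each fitted with limma over all 882 tested probes with Benjamini-Hochberg adjustment at 0.05. None of the 12 results for the 3 probes passed. The limma fit called 3 probes between 42 and 65 h (0.34%), 6 between 65 h and day 7 (0.68%), 0 between day 7 and restimulation (0%, with 78 at an unadjusted p under 0.05), and 14 between 65 h and restimulation (1.59%). A count of 0 of the 3 probes is near that background. With the slide as a block the limma counts were 16, 49, 0 and 36, and none of the 12 results passed there either.

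Between 42 and 65 h the means of UCSF033_000436 and UCSF033_000442 were lower by limma, by -0.95 log2 (SE 0.55, adjusted p = 0.847) and -0.78 log2 (SE 0.54, adjusted p = 0.918). For UCSF033_000456 the same limma contrast gave 0.55 log2, upwards (SE 0.46, adjusted p = 0.918). The 95% intervals ran from -2.23 to 0.33, from -2.03 to 0.47 and from -0.52 to 1.63, so that both no difference and a several-fold lower level lay within the interval of the first pair. With the left-out 42 h array in place of the other, the limma difference was -0.084 log2 for UCSF033_000436, 0.61 for UCSF033_000442 and -0.99 for UCSF033_000456, so the size of the first and the direction of the others rested on which 42 h array was used. With normexp background correction the difference of UCSF033_000456 was -0.25 log2.

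On the day 7 array all 3 probes were below both 65 h arrays. The limma differences were -1.22 log2 for UCSF033_000436 (SE 0.55, adjusted p = 0.354), -1.11 for UCSF033_000442 (SE 0.54, adjusted p = 0.397) and -1.02 for UCSF033_000456 (SE 0.46, adjusted p = 0.354). Their 95% intervals had upper ends of 0.06, 0.13 and 0.05, just above 0. On slide 1, where both groups had an array, the differences were -1.09, -0.74 and -1.30 log2. With normexp the differences were -0.68, -0.78 and -0.34 log2. With the slide as a block the limma fit gave an adjusted p of 0.0844 for UCSF033_000456, the lowest of any alternative for that comparison and probe. The single day 7 array was lower by -2.17, -1.89 and -0.47 log2 than the single 42 h array of the same slide, a description with no spread to set it against.

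Rested cells that met the antibodies again had more UCSF033_000456 signal than the rested array, on both restimulated arrays. The limma difference was 1.66 log2 (SE 0.46, 95% interval 0.59 to 2.73), with an unadjusted p of 0.00739 and an adjusted p of 0.513. With the slide as a block it was 1.86 log2 (limma adjusted p = 0.124), in the value table of the authors it was 1.12 (limma adjusted p = 0.294), and with normexp background correction 0.53 (unadjusted p 0.402, limma adjusted p = 0.999). The normexp value lies below the interval given above. With normexp UCSF033_000436 and UCSF033_000442 differed by 0.15 and 0.40 log2. For UCSF033_000436 the limma difference was 0.55 log2 (SE 0.55, adjusted p = 0.819), and for UCSF033_000442 it was 0.75 (SE 0.54, adjusted p = 0.761). Both had one restimulated array well above day 7, on slide 1. The other was slightly below day 7 for UCSF033_000436, whose difference was -0.042 without the slide 1 array, and slightly above it for UCSF033_000442.

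Restimulated cells at 18 h were also set against first-time activated cells at 65 h. The limma estimate for UCSF033_000456 was 0.64 log2 (SE 0.38, adjusted p = 0.541). Its slide 1 arrays gave 0.70 and its slide 2 arrays 0.57, and with normexp the estimate was 0.19. With the slide as a block the estimate stayed at 0.64 log2 (SE 0.28, limma adjusted p = 0.226). UCSF033_000436 was lower by -0.68 log2 in the limma fit (SE 0.45, adjusted p = 0.601), but the slides disagreed, with 0.10 and -1.45. UCSF033_000442 was lower by -0.36 (SE 0.44, limma adjusted p = 0.821), with 0.47 and -1.19 on the slides. Without the slide 2 array of either group its difference was above 0, at 0.01 log2 without that of 65 h and 0.10 without that of restimulation. In hours on the antibodies, 12 and 24 h of first activation lie equally near to 18 h, and since those arrays are taken as part of the choice, the differences from them are a description. Against 24 h UCSF033_000456 stood 1.41 log2 higher after restimulation (1.37 on slide 1 and 1.45 on slide 2), and against 12 h it stood 0.73 higher (0.77 and 0.69). In the authors' value table those differences were 0.69 and 0.15 log2. Without scaling its slide 1 signal was lower after restimulation (45.6) than at 12 h (49.0), and its slide 2 signal was higher (104 against 84.0). The scaled difference of UCSF033_000436 was -1.13 log2 against 24 h (-0.72 and -1.55). Against 12 h it was -0.73, where the slides disagreed (0.22 and -1.68). For UCSF033_000442 the scaled slides disagreed both times, with -0.55 log2 against 24 h (0.088 and -1.18) and 0.084 against 12 h (1.06 and -0.89). In the authors' value table UCSF033_000436 differed by -1.48 and -1.30 log2, lower on both slides each time. Unscaled it was also below 12 h on both slides (67.5 against 106 and 103 against 430). UCSF033_000442 was below 24 h on both slides in that table and unscaled (107 against 181 and 209 against 295). Against 12 h its slides disagreed in both, and its value table difference was -0.59 log2.

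UCSF033_000436 and UCSF033_000442 moved together across the arrays. Their log2 levels had a Pearson r of 0.944 over the 14 arrays, 0.945 over the 8 of slide 1 and 0.974 over the 6 of slide 2. Without the naive arrays, which are low for all 3 by the choice, r was 0.856 over 12 arrays. In the value table it was 0.929. UCSF033_000456 was less like them, although naive and day 7 were the lowest groups for all 3 by scaled level. Its r was 0.557 with UCSF033_000436 and 0.601 with UCSF033_000442 over 14 arrays, 0.727 and 0.658 over the 11 arrays from naive to 65 h, and -0.11 and -0.12 over the 12 without the naive arrays. The median r with the other 727 tested probes of more than 1 spot was 0.06, 0.14 and 0.31 for the 3 probes. The 95th percentiles of those r were 0.71, 0.75 and 0.70. Arrays share the scaling and the slide, so these correlations describe the profiles and carry no test.

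The probes whose profiles were most like those of the 3 as a set were UCSF033_000798 and UCSF033_000797, with a mean r of 0.796 and 0.782 over the 14 arrays. With the 3 in ID order, r was 0.78, 0.86 and 0.75 for the former and 0.74, 0.87 and 0.74 for the latter. These r include the naive arrays, which are low for the 3 by the choice. Both probes were above naive at 6 h too, by 2.24 and 2.29 log2, and their later differences were larger than those of the 3. UCSF033_000798 differed from naive by 4.83 log2 at 65 h and by 4.58 after restimulation, and UCSF033_000797 by 4.75 and 4.65. On the single 42 h array they stood 4.91 and 4.28 log2 above naive.

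The 3 probes lie close together in ID order, so the probes around them in that order were set beside them. What ID order stands for in the array design is not given in the files, and this window was chosen after values had been seen. Of the 33 IDs from 6 below the first to 6 above the last, 25 were tested. Of the 22 tested probes other than the 3, 3 stood at least 1 log2 above naive in the mean at 6 h, 14 did so at 24 h and 20 at 65 h. Over all tested probes those shares were 4.31%, 15.3% and 33.7%. Their median difference from naive was 0.24 log2 at 6 h and 1.74 at 65 h. That the 3 lie above the others at 6 h is fixed by the choice, and nothing is read from it.

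The neighbours of UCSF033_000436 and UCSF033_000442 are given as values only, because the 6 and 24 h arrays are taken as those that chose both probes. Within 6 IDs of UCSF033_000436, 5 other probes were tested, with a median of 0.27 log2 at 6 h and 1.65 at 24 h, and 0 of the 5 were at least 1 log2 above naive at 6 h against 4 at 24 h. Within 6 IDs of UCSF033_000442, 7 others were tested, with medians of 0.28 and 1.65 log2, and the counts were 0 and 6. These windows overlap, so some probes count in both. Over all tested probes the shares were 4.31% at 6 h and 15.3% at 24 h. At 65 h 1 neighbour of each had a larger difference from naive than the probe itself.

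Close neighbours of UCSF033_000456 had profiles like its own, in part. The 4 tested probes within 2 IDs correlated with it at r between 0.843 and 0.917 over 14 arrays. The one directly before it and the 2 directly after it stood 0.90 to 1.03 log2 above naive at 6 h, 1.37 to 1.40 at 12 h and 1.06 to 1.11 at 24 h. They were at 0.52 to 0.84 log2 at 42 h and 1.40 to 1.64 at 65 h, and at 2.55 to 2.75 after restimulation, the range that holds the 2.72 of UCSF033_000456. The other tested probe within 2 IDs stood 1.43 log2 above naive at 6 h, 1.63 at 12 h and 1.37 at 24 h. Its later course was higher, with 2.56 at 42 h, 3.42 at 65 h and 3.70 after restimulation. In the scaled values all 4 neighbours thus had the early step and the lower level at 24 h than at 12 h. They also had the high level after restimulation, which was not particular to them. Of the 12 tested probes within 6 IDs, 11 stood at least 1 log2 above naive there, against 33.3% of all tested probes. That UCSF033_000456 had a larger 6 h difference than the 4 neighbours is fixed by the choice, and nothing is read from it. Whether those probes read related or overlapping sequences could not be checked without their sequences.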

How the data were processed

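Total RNA (50 ng, per the series' design text) was extracted with Trizol and labelled with Cy3, per the labels' protocols. The authors deposited 15 scanner files that give an intensity for each of 15665 spots. Per the file headers, Feature Extraction 10.1.1.1 had subtracted the background; the submitters' processing notes name 10.6. The deposited table of log2 values covers 2191 probes. Its normalization is not stated in the labels or headers, and its scale and centring are unknown. The probes and lists were chosen with earlier results of these data known.

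Control, non-uniform and outlier spots were left out (saturated spots numbered 0). A probe's processed signal was averaged over spots and divided by the 75th percentile that the array showed for 571 probes, those detected on each of the 14 arrays. A floor of 0.583% was set before log2, where the lowest 5% of detected values ended. A probe was detected when over 50% of its spots were well above background. Differences were fitted with limma 3.58.1 in R 4.3.3, group as the only term, 14 arrays and 6 residual degrees of freedom, with Benjamini-Hochberg adjustment at 0.05 over 882 probes. The procedure was also run on simulated arrays whose noise was independent between arrays, so that run does not cover deviations shared within a slide. Named probes were the 3 and the 2 with the highest mean r to them. Python 3.11.15, numpy 2.4.6, pandas 2.3.3 and scipy 1.17.1 served for the rest. Alternatives changed the arrays, scaling, background correction, floor, filter, variance model and blocks. Slides came from the file headers. Arrays of one slide deviated together (r of deviations from group means 0.08 to 0.82 over 15 pairs of groups, 14 above 0.1). The fit with the slide as a block is given where it moved a count of calls by over 1.5 times.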

Additional observations from a re-analysis of the deposited data

How the results depend on the processing

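No alternative brought any of the 12 test results of the 3 probes past the threshold, and of their recomputed differences 320 kept their sign and 7 did not. With all 15 arrays the 65 h against 42 h difference of UCSF033_000456 was -0.29 log2, with the first 42 h array in place of the second it was -0.99 (0.61 for UCSF033_000442), and with normexp it was -0.25. Leaving out one array at a time gave -0.042 to 1.18 log2 for UCSF033_000436 between day 7 and restimulation and -0.79 to 0.10 for UCSF033_000442 between 65 h and restimulation. The sign changes came without the slide 1 restimulated array for the former and without the slide 2 array of 65 h (0.01) or of restimulation (0.10) for the latter. The cause of the other changes was not tested.

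The difference from naive at 6 and 12 h kept its direction under all 7 alternatives of scaling, background, floor and source. Without scaling, the 12 h difference of UCSF033_000442 was 1.51 log2, its lowest. With normexp the values were smaller (1.49 log2 for UCSF033_000442 and 0.76 for UCSF033_000456 at 6 h, 1.08 for the latter at 12 h) as in the value table (1.59, 0.83 and 1.13). Without scaling the day 7 difference from naive was -0.26, -0.039 and -0.36 log2 for the 3 probes in ID order. The unscaled 42 h difference of UCSF033_000456 was -0.52 log2. The 75th percentile was lower on those arrays than on the naive ones, and its part in these values was not tested.

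The counts of called probes over the whole array were unstable. Between 42 and 65 h limma called 3, and 0 with all 15 arrays, 416 with the first 42 h array alone, 16 with the slide as a block and 1 with the replicate block. The same count was 0 with the percentile over all probes, 7 with quantile normalization, 0 with normexp, 0 in the value table, 0 and 5 with the floor at the 1st and 10th percentile, 16 with no detection filter, 0 for probes detected on all 14 arrays, 0 with trended variance, and 0 to 11 with one array left out. For day 7 against 65 h limma called 6, and in the same order 0 (all 15 arrays), 49 (slide), 0 (replicate block), 0 (percentile over all probes), 15 (quantile), 0 (no scaling), 0 (normexp), 23 (value table), 0 and 13 (floors), 0 (detected on all 14) and 3 (trend), and 0 to 16 with one array left out. For restimulated against 65 h limma called 14, and 0 (all 15 arrays), 36 (slide), 9 (replicate block), 0 (percentile over all probes), 0 (no scaling), 0 (normexp), 7 (value table), 2 (floor at the 1st percentile) and 5 (no filter), and 0 to 33 with one array left out, the most without the slide 2 restimulated array. Against day 7 it called 0, 3 with no filter and 0 to 7 with one array left out. The counts fell to 0 without either naive array, with 840 probes tested in place of 882; the cause was not tested.

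The replicate numbers are in order of deposit and do not pair arrays: equal numbers correlated at -0.82 to 0.76 (7 of 15 pairs of groups above 0.1). Leaving out the day 7 array, or the 42 h array in the comparison with 65 h, leaves nothing to compare. With 1 or 2 arrays per group, differences of about 1 log2 were within the 95% intervals. UCSF033_000456, whose lowest ratio to the local background was 2.59 on the day 7 array, has the least room above background.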
